A study of Mus musculus with 2 samples.

Results

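The genes described here are the chemokines and chemokine receptors on an Affymetrix mouse array. They were defined by gene symbol, as probe sets annotated to exactly 1 gene with the name of a Ccl, Cxcl, Cx3cl or Xcl ligand or of a Ccr, Cxcr, Cx3cr, Ccrl or Ackr receptor. This gave 84 probe sets of 52 genes, 32 of them ligands and 20 receptors, out of 18193 genes represented by such probe sets. These members, and the gene lists set beside them below, were chosen with earlier results of these data known. By the sample titles, RNA of both groups came from bEnd3. This is a line of mouse brain microvessel endothelial cells of BALB/c origin transformed by polyoma middle T antigen. The cells carried a retrovirus for either a Smad4-siRNA or a Control-siRNA, were selected with puromycin, and were pooled from 2 infections for each group. Each group had 1 array. With 1 array on each side, differences have no replicate check and no test, and this number sets the precision of every value.

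Chemokines are small secreted proteins that guide the movement of leukocytes and other cells. They are named for the spacing of their first cysteines (CC, CXC, CX3C and XC) and act through receptors coupled to G proteins of the Gi class, while atypical receptors take up or bind chemokines without signalling through G proteins. Endothelial cells display chemokines on heparan sulfate at the vessel surface, where rolling leukocytes meet them, and many chemokine genes are induced by NF-κB and interferon signals. Smad4 is the shared partner of the Smads that carry TGF-β and BMP signals to the nucleus, and by its labels the comparison addresses which transcripts differ when it is targeted. The values of the label check given below do not show that targeting.

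Values are probe set signals after quantile normalization of the arrays, in arbitrary units. A signal can be compared between the arrays for 1 probe set, not between genes. The median signal of an array, 22.8, served as a floor, because detection calls were not used here. Each gene is represented by its brightest probe set over both arrays (mean log2 signal). Where 1 array lay below the floor, the ratio of the other signal to the floor is a bound, written "at least N-fold". Different probe sets of a gene had log2 ratios with a pooled SD of 0.47 over 4546 genes, a technical error that holds no spread between cultures.

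The arrays differed well beyond the targeted gene. The 3 Smad4 probe sets had signals, in turn, of 722, 817 and 1165 on the Smad4-siRNA-labelled array and of 607, 545 and 916 on the Control-siRNA array, with log2 ratios of 0.25, 0.58 and 0.35. For the values as deposited these were -0.12, 0.21 and -0.07, so the targeted transcript was not lower beyond the probe set SD of 0.47. For that reason its array is called Smad4-siRNA-labelled, and "higher" and "lower" state its direction relative to the Control-siRNA array. For Xist, the RNA of X inactivation, the brightest probe set read 4476 on the Smad4-siRNA-labelled array and 20.7 on the Control-siRNA array. The Y-linked gene Eif2s3y had 0.349 and 324 on the same arrays. Of 12 endothelial markers, 6 reached the floor on the Smad4-siRNA-labelled array and 11 on the Control-siRNA array, with summed signals of 785 and 16070, and Pecam1, Cldn5 and Tie1 were below the floor on the Smad4-siRNA-labelled array alone. Of 10 fibroblast markers, 8 and 2 reached the floor on these arrays, with summed signals of 21180 and 981, and of 8 pericyte and smooth muscle markers 4 and 2 did, with sums of 3012 and 91.9. Of 14 leukocyte markers with a probe set, 5 and 4 reached it, with sums of 294 and 1098, and Ptprc, the pan-leukocyte marker, was at 1.64 and 2.07. With 1 array per group, an effect of the siRNA cannot be told apart from a difference in the cells themselves, such as another cell line or a mislabelled sample, and each ratio below is a difference between these arrays only. In RNA from whole cultures, fewer cells of a type and less RNA per cell cannot be told apart either.

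Where a chemokine or receptor gene was measured on both arrays, it was more often higher than lower on the Smad4-siRNA-labelled array. Of the 52 genes, 25 (48.1%) had a signal at or above the floor on at least 1 array, against 63.7% of all 18193 genes, and 27 were below it on both arrays. Among the 11 genes measured on both arrays, 6 were at least 2-fold higher, 1 was at least 2-fold lower and 4 lay between. Over all 9479 genes measured on both arrays, 12.6% lay at least 2-fold above and 15.0% at least 2-fold below the Control-siRNA signal. A further 9 genes reached the floor only on the Smad4-siRNA-labelled array, with bounds of at least 2-fold for 6, and 5 only on the Control-siRNA array, with such a bound for 1. Genes of these last kinds entered through the array where they were bright, so their direction is given by the way they were kept. Over all 25, 12 lay 2-fold or more higher and 2 were lower by as much, beside 16.0% and 15.8% of all 11581 genes with a signal at the floor. A difference of 8-fold or more was reached by 5 genes upward and 0 downward, beside 3.25% and 1.51% of all genes. The median log2 ratio of the 25 was 0.99 with sides below the floor raised to it, and -0.11 over all genes treated alike. Neither median has a test. Fibroblast markers were higher on the same array by a median log2 ratio of 5.77 over the 8 measured. Of these 8, 6 reached the floor only on that array, which fixed their direction. The part of these markers in the chemokine difference was not tested.

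**Figure D1:**
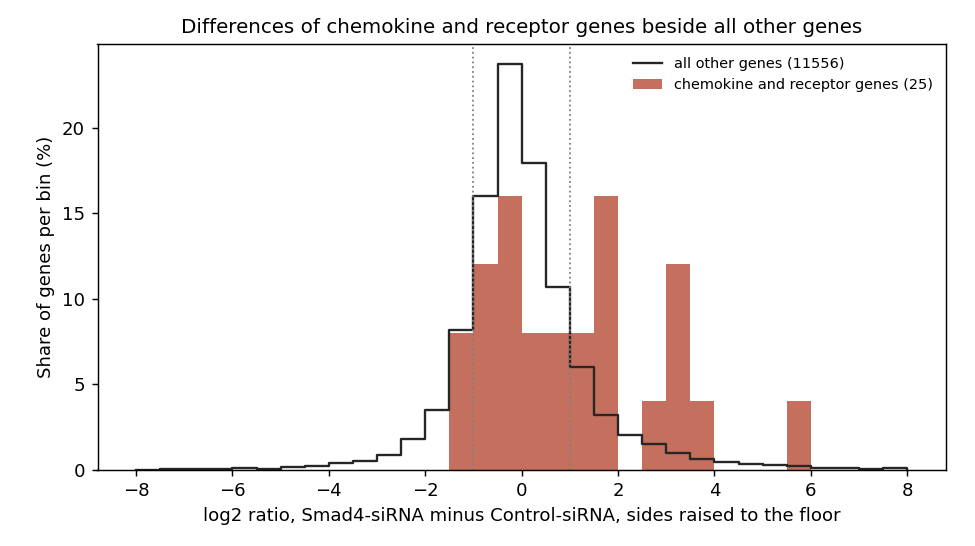
Share of genes (vertical axis, percent) by log2 ratio, Smad4-siRNA minus Control-siRNA, with sides below the floor raised to it (horizontal axis). Bars are the 25 chemokine and receptor genes with a side at or above the floor, the line is all other genes with such a side, and the dotted lines mark 2-fold. The bars reach further to the right than to the left of 0, as 12 genes lie past 2-fold higher and 2 past 2-fold lower.

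Among the CC ligands, Ccl2 was lower, while Ccl7 and Ccl8 reached the floor only on the Smad4-siRNA-labelled array. Of 17 genes, 10 reached the floor on at least 1 array, and of these 4 were higher and 2 lower by 2-fold or more, beside 16.0% and 15.8% of all genes. Of the 3 measured on both arrays, 1 was higher, 1 lower and 1 between, and the direction of the others follows from the array on which they reached the floor. Ccl7, which encodes a monocyte attractant (MCP-3), had a signal of 1388 on the Smad4-siRNA-labelled array and of 9.83, under the floor, on the Control-siRNA array (probe set 1421228_at). It was at least 60.9-fold higher, the largest bound among the 25 measured genes. Ccl8, also called MCP-2, had 225 and 15.3 on the same arrays and was at least 9.88-fold higher. Ccl2, the classical monocyte attractant of endothelium (MCP-1), was bright on both arrays but lower on the Smad4-siRNA-labelled array, with 1369 against 3107 on the Control-siRNA array, or 2.27-fold lower (log2 ratio -1.18, and -1.50 for the values as deposited).

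The remaining CC ligands have more varied targets. Ccl9, a ligand of Ccr1 in mice, had 83.7 on the Smad4-siRNA-labelled array and 11.8 on the Control-siRNA array, at least 3.68-fold higher. Ccl28, known as a mucosal chemokine, had 73.4 and 25.6 on these arrays and was 2.87-fold higher by 1 of its 3 probe sets, while its other probe sets stayed below the floor on both. Ccl25, which attracts lymphocytes to the thymus and small intestine, was at least 2.58-fold lower, with 15.6 on the Smad4-siRNA-labelled array and 58.7 on the Control-siRNA array. Its second probe set had the same direction (12.6 and 36.9). In 4 genes the difference did not reach 2-fold on this scale. Ccl5 (RANTES), which attracts T cells and monocytes, had 45.3 and 0.834 on the same arrays, a bound of 1.99-fold. Ccl11, the eosinophil attractant eotaxin, had 26.7 and 0.919, a bound of only 1.17-fold because its signal lay just above the floor. Ccl17, a ligand of Ccr4, had 40.9 and 23.7, and Ccl4, a macrophage inflammatory protein, had 17.3 and 30.1. The 7 CC ligand genes below the floor on both arrays were Ccl1, Ccl3, Ccl6, Ccl12, Ccl20, Ccl22 and Ccl24.

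**Figure D2:**
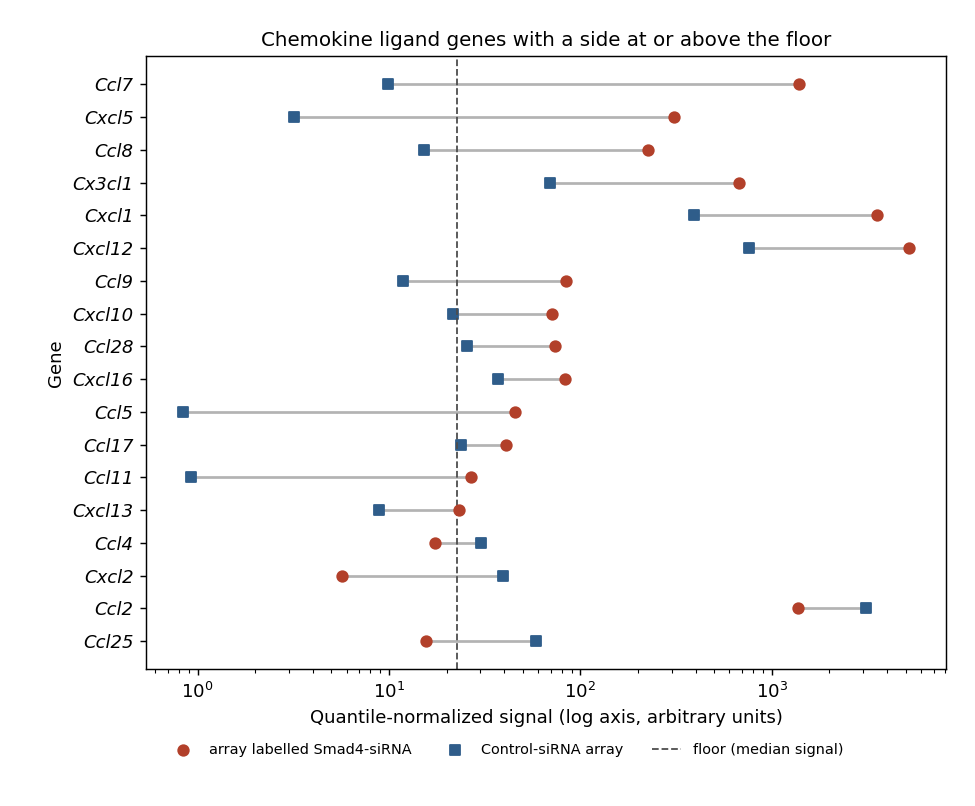
Quantile-normalized signal (horizontal log axis, arbitrary units) of the 18 ligand genes with a side at or above the floor, sorted by log2 ratio. Circles are the Smad4-siRNA-labelled array, squares the Control-siRNA array, and the dashed line is the floor of 22.8. In 14 genes the circle lies to the right of the square, while in Ccl4, Cxcl2, Ccl2 and Ccl25 it lies to the left.

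Among the CXC ligands, 13 genes were on the array and 7 reached the floor. All 3 that were measured on both arrays were at least 2-fold higher by their brightest probe set, beside 12.6% of all genes measured on both. For 1 of these 3, Cxcl12, the probe sets differed in sign, as described below. Cxcl1 (KC), a neutrophil attractant that acts on Cxcr2, had a signal of 3540 on the Smad4-siRNA-labelled array and of 393 on the Control-siRNA array, 9.02-fold higher. Its other probe sets were also higher, with log2 ratios of 1.94 and 3.51. Cxcl5, a further Cxcr2 ligand, had 308 and 3.18 on these arrays and was at least 13.5-fold higher. Cxcl2 (MIP-2), which acts on the same receptor, had 5.67 on the Smad4-siRNA-labelled array and 39.6 on the Control-siRNA array. It reached the floor only on the Control-siRNA array, which fixed its direction, with a bound of at least 1.74-fold lower. Cxcl3, the remaining close relative of Cxcl1 and Cxcl2, was below the floor on both arrays, at 4.86 and 5.47.

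The promoters of these relatives are shown because they hold the same NF-κB type letters. Of their transcripts, only Cxcl1 was measured on both arrays. The direction of Cxcl2 was fixed by the array on which it reached the floor, and Cxcl3 had no direction. Sequences are from RefSeq (GRCm38.p6), run 5′ to 3′ on the strand of the gene, and span 250 bases before to 50 after the annotated start. In Cxcl1, Cxcl2 and Cxcl3 the capitals mark the match to the motif GGANNTTCC. In Cxcl10, an interferon-induced T-cell attractant, they mark, in order, matches to AAANNGAAA (interferon response type), GGANNTTCC and TGANTCA (AP-1 type).
Cxcl1, chr5:90890995-90891294, plus strand: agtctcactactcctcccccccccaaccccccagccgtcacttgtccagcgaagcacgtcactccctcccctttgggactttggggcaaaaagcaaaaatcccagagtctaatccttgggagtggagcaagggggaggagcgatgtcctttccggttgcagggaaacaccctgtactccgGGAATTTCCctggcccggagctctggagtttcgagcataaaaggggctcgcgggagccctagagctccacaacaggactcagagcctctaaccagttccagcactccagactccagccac
Cxcl2, chr5:90903649-90903948, plus strand: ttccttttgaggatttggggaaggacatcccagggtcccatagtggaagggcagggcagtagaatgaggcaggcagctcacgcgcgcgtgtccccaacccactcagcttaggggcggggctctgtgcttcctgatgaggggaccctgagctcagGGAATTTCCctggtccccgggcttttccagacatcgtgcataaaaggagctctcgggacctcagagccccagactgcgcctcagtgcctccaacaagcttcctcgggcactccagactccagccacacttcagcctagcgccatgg
Cxcl3, chr5:90785851-90786150, plus strand: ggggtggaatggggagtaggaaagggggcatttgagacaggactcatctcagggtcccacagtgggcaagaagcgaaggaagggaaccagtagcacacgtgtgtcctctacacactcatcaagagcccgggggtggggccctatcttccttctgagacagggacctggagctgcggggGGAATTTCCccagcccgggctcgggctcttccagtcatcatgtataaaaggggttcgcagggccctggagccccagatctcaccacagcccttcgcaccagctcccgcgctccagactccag
Cxcl10, chr5:92348840-92349139, minus strand: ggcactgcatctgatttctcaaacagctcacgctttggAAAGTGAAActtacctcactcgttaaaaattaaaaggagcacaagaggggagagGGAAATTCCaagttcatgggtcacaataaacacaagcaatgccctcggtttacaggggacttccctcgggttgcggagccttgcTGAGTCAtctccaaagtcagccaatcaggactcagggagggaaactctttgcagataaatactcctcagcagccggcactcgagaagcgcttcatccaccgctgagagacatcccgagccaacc

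The match reads GGAATTTCC in all of Cxcl1, Cxcl2 and Cxcl3, and begins 70, 96 and 72 bases before the start in them. Beside this shared stretch, Cxcl1 was 9.02-fold higher, Cxcl2 at least 1.74-fold lower (a bound) and Cxcl3 below the floor. The part of the match in these values was not tested. With 25 bases on each side of the match and no gaps, Cxcl1 and Cxcl2 had the same base at 30 of 59 positions. Cxcl1 and Cxcl3 did at 28, and Cxcl2 and Cxcl3 at 23. All counts include the match itself, which is identical by choice outside its N positions. RefSeq promoters were matched for 39 of the 52 genes, as 43 promoters. Of the 25 measured genes, 17 had a promoter, and Ccl2, Ccl5, Ccl7 and Cxcl5 were among those without. On both strands, GGANNTTCC was found in 18.6% of the 43 and in 4.26% of all 32851 promoters of the same length, and TGANTCA in 14% and 7.81%. AAANNGAAA was in 9.30% and 10.6%, and the BMP Smad type GGCGCC in 6.98% and 11.9%. The Smad palindrome GTCTAGAC was in 0 of the 43 promoters and in 0.213% of all. The 3 matches in Cxcl10 do not overlap. A match of letters is a description of the window and shows no binding.

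The other CXC ligands act on other receptors. Cxcl10, which acts on Cxcr3, had 70.8 on the Smad4-siRNA-labelled array and 21.7, just under the floor, on the Control-siRNA array, at least 3.11-fold higher. The 2 other ligands of Cxcr3, Cxcl9 and Cxcl11, were below the floor on both arrays. Cxcl16, a membrane-bound ligand of Cxcr6, had 82.6 and 37.1 on these arrays, 2.22-fold higher, and its second probe set was higher as well (34.7 and 3.61). Cxcl13, the B-cell attractant, had 23.3 and 8.82 and crossed the floor with almost no margin. Cxcl14, Cxcl15 and Cxcl17 were below the floor on both arrays.

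Cxcl12 (SDF-1), which acts on Cxcr4 and is taken up by Ackr3, depended on the probe set. Its brightest, 1448823_at, had 5238 on the Smad4-siRNA-labelled array and 764 on the Control-siRNA array, 6.86-fold higher. A second, 1417574_at, had 1239 and 956 on these arrays, a log2 ratio of 0.37 that turned to -0.04 for the values as deposited. The third, 1439084_at, had 18.3 and 74.2, at least 2-fold in the other direction with a bound of -1.70 on the log2 scale. Cxcl12 was the only 1 of the 7 genes with more than 1 usable probe set whose probe sets differed in sign, and their median log2 ratio was 0.70. Which transcripts each probe set reads was not examined.

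**Figure D3:**
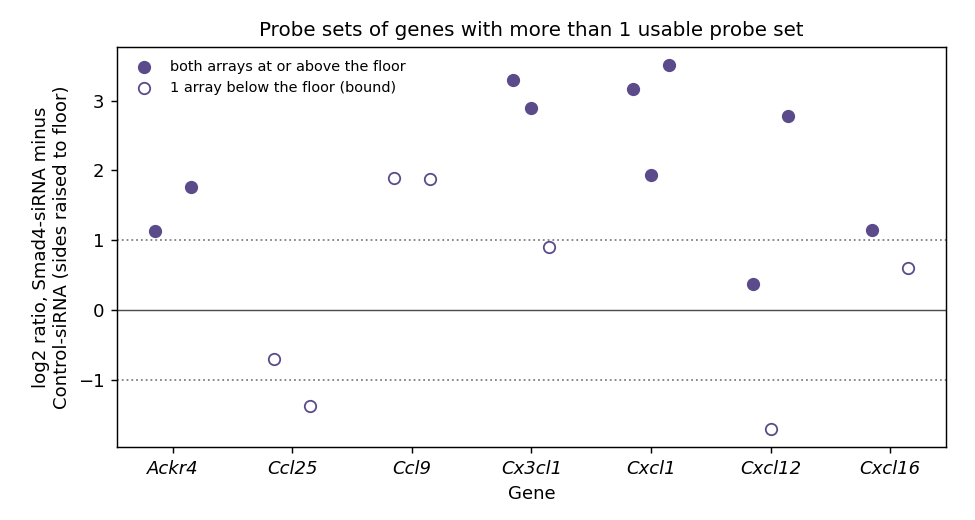
Log2 ratio, Smad4-siRNA minus Control-siRNA, with sides raised to the floor (vertical axis), for each probe set with a side at or above the floor in the 7 genes that have more than 1. Filled points are measured on both arrays, open points are bounds, and dotted lines mark 2-fold. Points of a gene lie on 1 side of 0 except in Cxcl12, where they run from -1.70 to 2.78.

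Cx3cl1 (fractalkine), the only CX3C ligand, is made as a membrane-anchored adhesion protein of activated endothelium and is shed as an attractant of monocytes. It had 678 on the Smad4-siRNA-labelled array and 69.5 on the Control-siRNA array, 9.75-fold higher. A second probe set gave 243 and 32.5 on these arrays, a log2 ratio of 2.90, and another gave 42.9 and 4.58. The fourth was below the floor on both. Xcl1, the XC ligand, was below the floor on both arrays.

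Many chemokine genes lie side by side, and some neighbours differed in direction. Of the values in this paragraph, only those of Ccl2 and Cxcl1 were measured on both arrays. The others are bounds set by the floor, so bounds of the same sign cannot be ranked against each other. In the run Ccl2, Ccl7, Ccl11, Ccl12, Ccl8 and Ccl1 the log2 ratios, with sides raised to the floor, were -1.18, 5.93 and 0.23 for the first 3 and 3.30 for Ccl8, while Ccl12 and Ccl1 were unmeasured. Ccl2 and Ccl7 are direct neighbours, and they had the lowest value in this run and the largest bound among the 25 measured genes. In the run Ccl5, Ccl9, Ccl6, Ccl3 and Ccl4, the ratio was 0.99 for Ccl5, 1.88 for Ccl9 and -0.40 for Ccl4. In the run Cxcl5, Ppbp, Pf4, Cxcl3, Cxcl15, Cxcl1 and Cxcl2, Cxcl5 had 3.76 and Cxcl1 had 3.17. Of the genes between them, the platelet chemokine genes Ppbp and Pf4 had 0.51 and -1.69, while Cxcl3 and Cxcl15 were unmeasured. Cxcl2, next to Cxcl1, had -0.80.

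**Figure D4:**
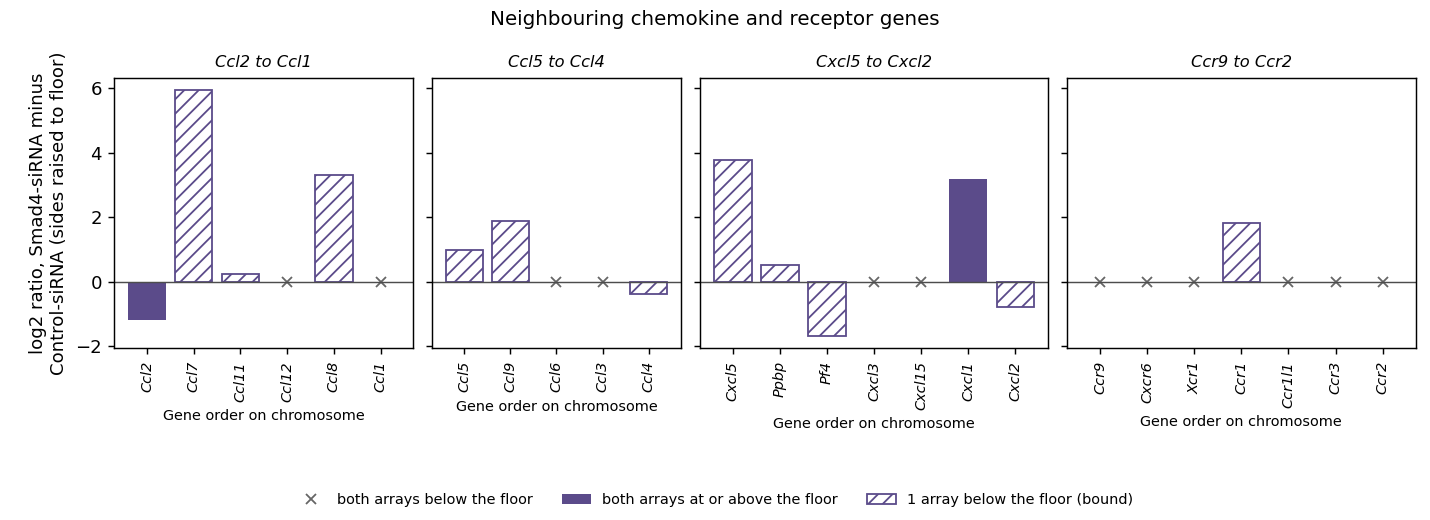
Log2 ratio, Smad4-siRNA minus Control-siRNA, with sides raised to the floor (vertical axis), for 4 runs of neighbouring genes in their order on the chromosome (horizontal axis). Filled bars were measured on both arrays, hatched bars are bounds, and crosses are genes below the floor on both arrays. The bars of Ccl7, Ccl8, Cxcl5 and Cxcl1 stand above 3, and of these only Cxcl1 was measured on both arrays. The heights of hatched bars of the same sign are set by the floor and cannot be ranked. In the receptor run only Ccr1 has a bar.

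Receptor genes were mostly unmeasured. Of the 15 receptors that signal through G proteins, 12 were below the floor on both arrays, namely Ccr2, Ccr3, Ccr4, Ccr6, Ccr7, Ccr8, Ccr9, Cx3cr1, Cxcr2, Cxcr4, Cxcr5 and Cxcr6. The receptors of Cxcl12, Cxcl1 and Cx3cl1 were among them. Cxcr4, the receptor of Cxcl12, had signals of 4.71 on the Smad4-siRNA-labelled array and 0.650 on the Control-siRNA array. Cxcr2, that of Cxcl1 and Cxcl5, had 1.63 and 1.40, and Cx3cr1, that of Cx3cl1, had 9.99 and 13.9 in its brightest probe set. A signal below the floor sets no level and does not show that a transcript was absent. Ccr1, a receptor for Ccl7, Ccl9 and Ccl5, was the only one of these 15 at the floor on the Smad4-siRNA-labelled array, with 79.8 there against 8.94 on the Control-siRNA array, at least 3.5-fold higher by 1 of its 2 probe sets. Cxcr3, the receptor of Cxcl10, had 11.5 and 36.4 on these arrays, and Ccr10, that of Ccl28, had 10.7 and 29.7. Both had bounds under 2-fold (1.6 and 1.3). Of the 14 leukocyte markers, 9 were below the floor on both arrays, among them Ptprc, Itgam, Adgre1 and Cd3e. Cd68, Csf1r, Cd14 and Laptm5 reached it on both arrays and Cd74 on the Smad4-siRNA-labelled array alone, and Cd68 was lower, with 35.2 there against 820 on the Control-siRNA array.

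Atypical receptors were measured in 3 of 4 genes, beside 3 of the 15 receptors that signal through G proteins and 63.7% of all genes. Ackr3 (formerly Cxcr7), which scavenges Cxcl12, had 696 on the Smad4-siRNA-labelled array and 1236 on the Control-siRNA array (log2 ratio -0.83). For the values as deposited it was -1.23, past 2-fold lower. Ackr4, a scavenger of Ccl19, Ccl21 and Ccl25, had 152 and 69.7 on these arrays, 2.19-fold higher, and a second probe set gave a log2 ratio of 1.77. Ackr1, the Duffy antigen that carries chemokines across venular endothelium, had 27.7 and 39.0, near the floor. Ccrl2, which binds chemerin and does not signal, had 23.7 and 26.9, a log2 ratio of -0.18 that turned to 0.06 for the values as deposited. Ackr2, a scavenger of inflammatory CC chemokines, was below the floor in all 3 of its probe sets.

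**Figure D5:**
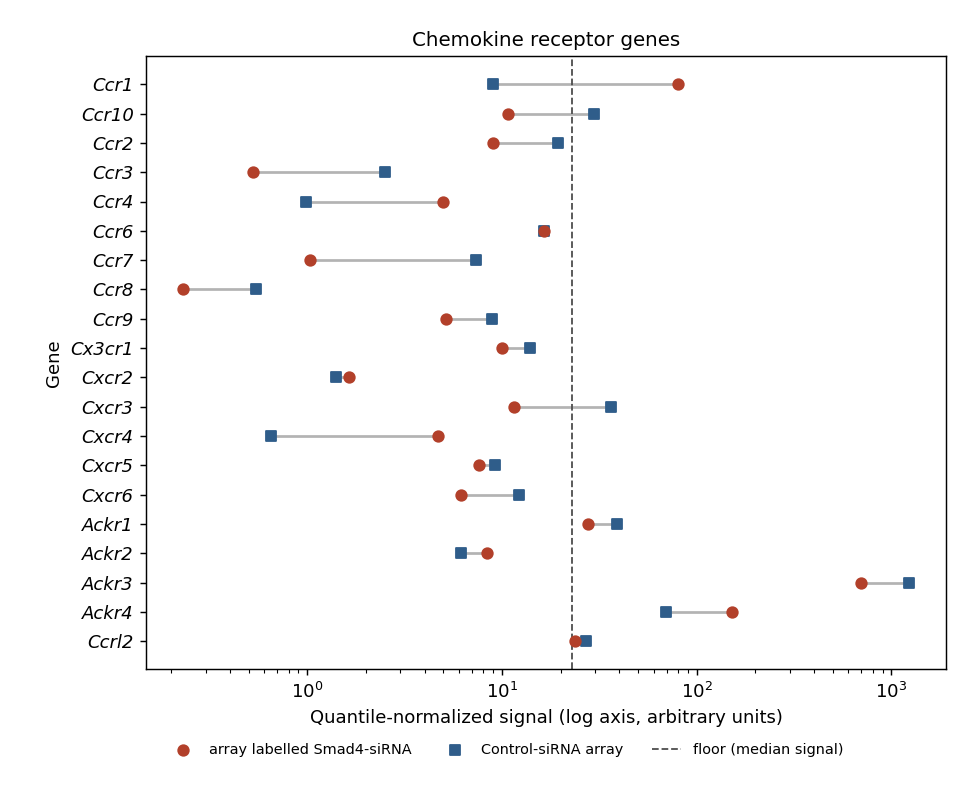
Quantile-normalized signal (horizontal log axis, arbitrary units) of the brightest probe set of the 20 receptor genes, typical receptors first, then the atypical ones and Ccrl2. Circles are the Smad4-siRNA-labelled array, squares the Control-siRNA array, and the dashed line is the floor of 22.8. Most points lie left of the floor, and only Ackr3 and Ackr4 lie clearly to its right on both arrays.

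Genes that act upstream of chemokine expression were set beside these values. Of 27 measured genes of the NF-κB pathway and its inducers, 5 were at least 2-fold higher, 4 at least 2-fold lower and 18 lay between, with a median log2 ratio of -0.05. Of the higher genes, 3 reached the floor only on the Smad4-siRNA-labelled array, which fixed their direction. Of the 23 measured on both arrays, 2 were higher, 4 lower and 17 between. The interleukin 1 receptor gene Il1r1 had 207 on the Smad4-siRNA-labelled array and 18.3 on the Control-siRNA array, at least 9.06-fold higher. The IκB family genes Bcl3 and Nfkbiz were 8.12-fold and 6.31-fold higher. Ikbkg, the regulatory subunit of the IκB kinase, was 2.77-fold lower, and the Toll-like receptor genes Tlr2 and Tlr3 were 2.37-fold and 2.10-fold lower. Of 16 measured interferon signalling genes, 6 were at least 2-fold higher, 1 was lower and 9 lay between, with a median of 0.48. Of the 14 measured on both arrays, 6 were higher, 0 lower and 8 between. The factors Irf7 and Irf1 were 4.94-fold and 3.95-fold higher, the feedback inhibitor gene Socs3 was 4.64-fold higher, and Irf8 was at least 2.15-fold lower. The shares over all genes were 16.0% higher and 15.8% lower, and 12.6% and 15.0% over the genes measured on both arrays.

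Genes downstream of the receptors had shares near those of all genes. Of 27 measured genes of chemokine receptor signal transduction, 6 were 2-fold or more higher, 4 lower and 17 between, with a median of 0.24. These were 22.2% higher and 14.8% lower, beside 16.0% and 15.8% of all genes. Of the 21 measured on both arrays, 4 were higher, 3 lower and 14 between, beside 12.6% and 15.0% of all such genes. The direction of the others was fixed by the array on which they reached the floor. Tiam1, an exchange factor for Rac, had 417 on the Smad4-siRNA-labelled array and 2.55 on the Control-siRNA array, at least 18.3-fold higher. The G protein regulators Rgs4 and Rgs3 were at least 7.84-fold and 3.72-fold higher, with 1 of the 3 Rgs3 probe sets in the other direction. Pik3cg, the lipid kinase that Gβγ activates, was at least 4.80-fold lower, Arrb1, a β-arrestin that desensitises receptors, 3.56-fold lower and Rgs2 2.96-fold lower.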

How the data were processed

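Total RNA of the 2 groups was labelled with biotin and hybridised to Affymetrix mouse arrays, 1 per group, per the labels. The authors deposited a linear signal intensity per probe set, and the submitters' processing notes name MAS5 as the software. Not given in the sources used here are its version and scaling target. Of 45101 probe sets, the 64 controls were dropped. Deposited medians were 24.8 on the Smad4-siRNA-labelled array and 21.0 on the Control-siRNA array.

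Gene symbols of the platform annotation were brought up to date through Entrez identifiers in RefSeq (GRCm38.p6), the source also of gene order and promoters. Exactly 1 gene was annotated for 34945 probe sets, several for 932 and none here for 9160. Another 4 probe sets of copies of Ccl19, Ccl21 or Ccl27 had several genes and are not among the members. Log2 signals of both arrays were quantile normalized. The floor was the median. Sides below it were raised to it before the log2 ratio, Smad4-siRNA minus Control-siRNA. The ratio step was tested on simulated data in which the changed genes lay well above the floor. Bounds and changes near the floor were not tested in this way. Python 3.11.15, pandas 2.3.3 and statsmodels 0.14.6 were used.

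All member genes with a side at or above the floor were named with their values, and of each pathway list up to 3 genes farthest from 0 each way among those at least 2-fold different. The members and lists were chosen with earlier results of these data known. Protein motifs planned for the ligands and receptors were not analysed here. Alternatives were the values as deposited, centring, removal of a lowess trend (fraction 0.3), floors at the 25th and 75th percentile, a pseudocount, the median over probe sets, and no suffixed probe sets.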

Additional observations from a re-analysis of the deposited data

How the results depend on the processing

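Of the 14 genes at least 2-fold different, 9 higher and 2 lower ones kept their call under every alternative that gave a value, out of 8 planned. Only Ccl2, Ccl7, Cx3cl1, Cxcl1 and Cxcl5 among them had a value under every alternative. Ccl9, Ccl25, Ccl28, Ccr1, Cxcl10 and Cxcl16 fell below the floor at the 75th percentile, so that floor did not test their calls. Ackr4 (0.26) and Ccl8 (0.82) lost theirs at a 75th percentile floor, and Cxcl12 (0.70) with the median over its probe sets. No called log2 ratio changed sign. The floor moved the counts most. At the 75th percentile 9 genes were measured, with 5 at least 2-fold higher and 1 lower, beside 12.2% and 11.6% of all genes. At the 25th 40 were, with 16 higher and 7 lower and a median log2 ratio of 0.25. The shares of all genes there were 15.7% higher and 17.4% lower, so the lower genes were near the share of all genes. With the 25th percentile added as a pseudocount, 15 were higher and 5 lower, beside 17.5% and 17.1% of all genes. The values as deposited gave 13 higher and 3 lower, beside 14.8% and 20.1% of all genes. The median log2 ratio of all genes, -0.11 above, was -0.25 there. Centring gave 14 and 3, beside 16.5% and 16.9% of all genes, and removal of the lowess trend 13 and 2, beside 17.5% and 13.5%. The median over probe sets gave 9 and 2 of 22 genes measured, beside 14.4% and 16.3% of all genes. The median log2 ratio of the members was 0.74 there, with no value for Ccl28 and Ccr1. Leaving out suffixed probe sets gave 12 and 2 of 22, beside 16.0% and 15.8% of all genes. Leaving out Cxcl12, whose probe sets differ in sign, was chosen after seeing the data and gave 11 and 2. Among genes between, Ackr3 was past 2-fold lower as deposited (-1.23) and with centring (-1.10), and Ccl5 was past 2-fold higher under 5 alternatives, reaching 3.01 with the floor at the 25th percentile, since its bound is set by the floor. At that floor Cxcl2 (-2.80), Cxcr3 (-1.66) and Ccr10 (-1.47) were also at least 2-fold lower. Ccl11 (2.25) and Cxcl13 (1.40) were at least 2-fold higher there. The pseudocount gave the same calls for these genes, and centring moved Ccl17 to 1.01. No paired analysis was possible because each group has 1 array. Signals near the floor, such as those of Ccl11, Cxcl13, Ackr1 and Ccrl2, limit what their ratios can show.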

Other observations

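Genes close to the family but outside the symbol rule also differed. Cmklr1, the chemerin receptor, had a signal of 4.93 on the Smad4-siRNA-labelled array and 99.9 on the Control-siRNA array, at least 4.39-fold lower. Pf4, the platelet chemokine also called Cxcl4, had 8.77 and 73.3 on these arrays, at least 3.22-fold lower, and lies in the run of genes between Cxcl5 and Cxcl1, both of which were higher. Cklf, a chemokine-like factor gene, had 146 and 345, 2.37-fold lower, with 2 of 7 probe sets in the other direction. The chemokine-like gene Tafa5 had 66.7 and 2.81, at least 2.93-fold higher. Of 10 measured genes on this list, 1 was at least 2-fold higher and 5 lower, beside 16.0% and 15.8% of all genes, with a median log2 ratio of -0.38. Of these, Tafa5 and 3 of the lower genes reached the floor on 1 array only, which fixed their direction. Of the 4 measured on both arrays, 0 were higher, 2 lower and 2 between.

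Genes that build, edit or carry heparan sulfate, the surface on which chemokines are held, were higher more often than lower where both arrays measured them, with 7 at least 2-fold higher, 1 lower and 9 between out of 17, beside 12.6% and 15.0% of all such genes. Another 5 reached the floor only on the Smad4-siRNA-labelled array, which fixed their direction. Of all 22 measured, 12 were at least 2-fold higher, 1 was lower and 9 lay between, beside 16.0% and 15.8% of all genes, with a median log2 ratio of 1.5. Sulf1, a sulfatase that trims heparan sulfate outside the cell, had 1102 on the Smad4-siRNA-labelled array and 35.6 on the Control-siRNA array, 30.9-fold higher. The glypican gene Gpc4 had 605 and 15.0 on these arrays, at least 26.5-fold higher, and the sulfotransferase gene Hs6st2 was 21.9-fold higher. Hs3st1, a sulfotransferase of another position, was 6.16-fold lower, with 55.5 and 342. Of 8 measured fibroblast markers, 6 were at least 2-fold higher, but 5 of these reached the floor only on the Smad4-siRNA-labelled array, which fixed their direction. Of the 2 measured on both arrays, Pdgfra was higher (log2 ratio 2.86) and S100a4 lay between (0.09). The part of these markers in the heparan sulfate values was not tested.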
